A study of Mus musculus with 15 samples.

Results

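The sarcomere is the contractile unit of heart muscle, and 40 genes that encode its filaments, its Z-disc and a few associated factors were followed after a low dose of iron ions. They were taken from a list of names, with 1 probe set per gene. Where a gene had a second probe set (Nebl and Tmod1), the one with the higher mean signal was used. All 40 were on the array among 19937 named genes, and all 40 were also among the 9968 genes with a mean signal above the median, which were the ones tested. Of the 40, 6 belong to the thick filament, 10 to the thin filament and its caps, 4 to titin and the M-band, and 17 to the Z-disc and its links. The other members are Ankrd1, a titin-associated stress factor, and a pair of muscle ubiquitin ligases.

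Male C57Bl/6NT mice aged 8 to 9 months received a whole-body dose of 0.15 Gy of iron ions at 1 GeV per nucleon, with a linear energy transfer of about 151 keV per µm, or a sham exposure. Cardiomyocytes were isolated from the left ventricle with collagenase and a stepwise return of calcium, and RNA from 12 iron and 3 sham preparations was read on arrays. The iron groups held 3 arrays on day 1, 3 on day 3 and 2 each on days 7, 14 and 28; the sham arrays analysed here were 2 from day 1 and 1 from day 3. Wherever 3 sham values are listed, the first pair is from day 1 and the last from day 3. The labels leave unsaid whether each array was a different mouse. The p-values therefore cover array-to-array spread alone, and that spread may be technical. Days 7, 14 and 28 had no sham array of the same day, so that iron exposure and anything else that differed with time cannot be told apart there.

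In each sarcomere, myosin of the thick filament pulls on actin of the thin filament when calcium binds the troponin complex, and the thin filaments are anchored at the Z-disc by alpha-actinin. Titin spans from the Z-disc to the M-band and acts as a molecular spring, and its Z-disc end is capped by telethonin. The Z-disc also carries LIM, PDZ and filamin proteins that respond to stretch, while ubiquitin ligases mark worn or surplus myofibrillar proteins for degradation.

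The preparations carried ventricular cardiomyocyte markers on every array and a varying level of other cells' markers. A list of 10 ventricular cardiomyocyte markers outside the 40 genes averaged 11.36 to 11.62 on the log2 scale over all 15 arrays, and a list of 10 skeletal muscle markers averaged 5.19 to 5.53. A list of 6 atrial markers reached 9.08 on the first day 1 sham array, with Myl4 at 11.54 there, and 8.12 on 1 day 3 iron array, and lay between 5.71 and 7.29 on the other arrays. Fibroblast markers averaged 6.17 to 6.43 on the day 3 iron arrays and 7.67 to 7.79 on the sham arrays, and all 9 tested were lower there. In such bulk RNA, fewer cells of a type and less RNA per cell cannot be told apart.

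More members were called between later and earlier iron days (15) than against sham on any single day (3 at most). The same held over all tested genes, with 22% called late against early and at most 8.04% on any single day. The late against early comparison also held more arrays than any day against sham. The mean of the 40 signals was 10.35 to 10.44 on the 6 late iron arrays (days 7, 14 and 28), 10.51 to 10.62 on the 6 early iron arrays (days 1 and 3), and 10.57, 10.57 and 10.41 on the sham arrays. The late and early arrays did not overlap in this mean, and the day 3 sham array was level with the late ones. In all, 19 of the 40 genes were called at an adjusted p below 0.05 in at least 1 of 7 comparisons. Of these, 7 were called in a comparison of 1 iron day with sham. The test was limma with Benjamini-Hochberg adjustment over all 9968 genes. How many of all tested genes were called in at least 1 comparison was not counted, so these counts have no share beside them. Late against early alone called 22% of all tested genes, and the F test described below called 19.2%. The counts of 19 and 7 therefore do not show whether members were called more often than other genes.

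**Figure D1:**
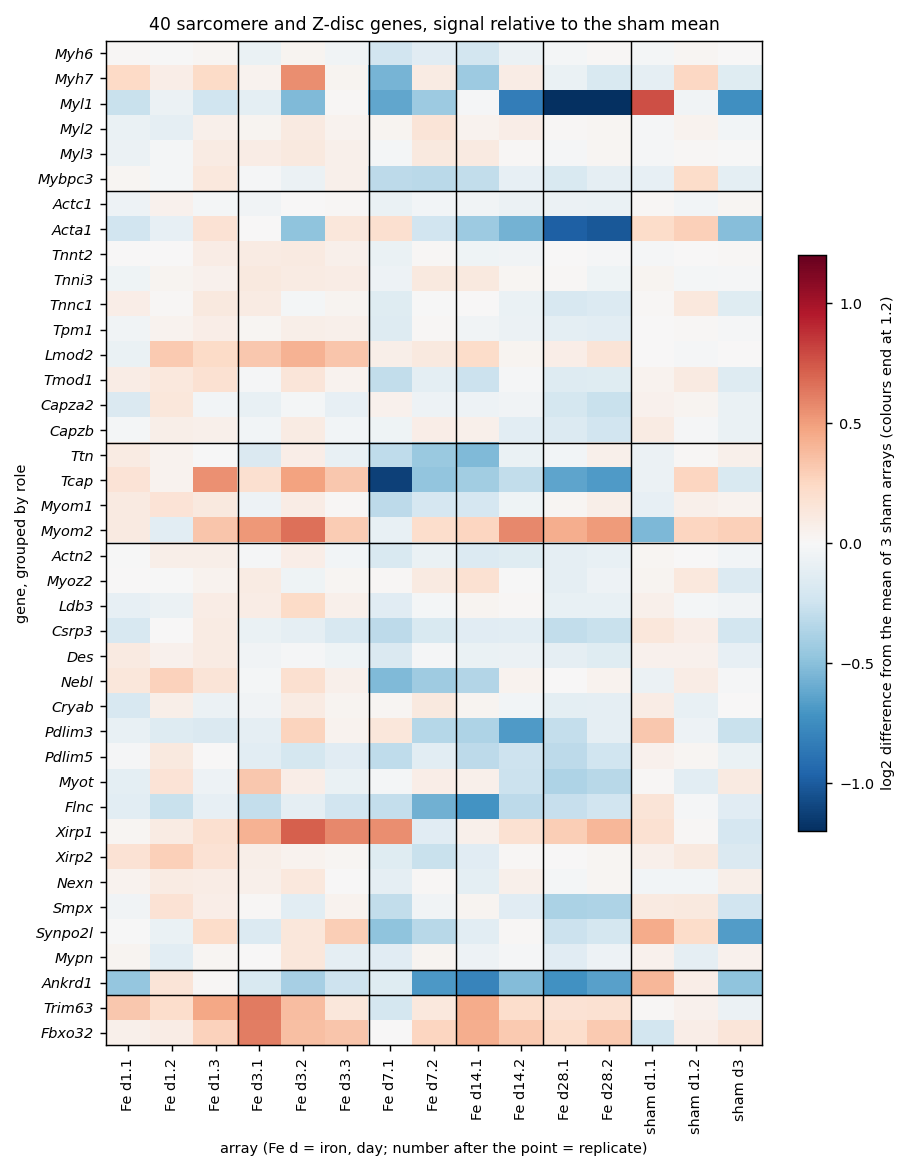
Log2 signal of the 40 genes (down the page, grouped by role) on the 15 arrays (left to right, iron days 1 to 28, then sham), coloured by the difference from the mean of the 3 sham arrays, with colours ending at 1.2. Tcap turns blue on all 6 late iron arrays, and Myl1 and Acta1 are bluest on both day 28 arrays.

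On day 1 after iron no member was called, where 0.0602% of all tested genes were. An unadjusted p below 0.05 was found for 2 of the 40 members, beside 1101 of all 9968 tested genes. On day 3, 3 members rose (Xirp1, Lmod2 and Fbxo32) and none fell, against 8.04% of all tested genes called, 2.79% higher and 5.25% lower. On day 7, 2 members fell (Tcap and Nebl), where 4.61% of all tested genes were called, 1.95% higher and 2.67% lower. On the same arrays 3 of 10 ventricular cardiomyocyte markers outside the 40 genes were called lower, down to -0.72, and the 9 tested macrophage markers were all above sham (median 0.557), 1 of them called; their part in the day 7 differences was not tested. On day 14 none was called, where 0.833% of all tested genes were (0.592% higher and 0.241% lower). The smallest adjusted p was 0.0762 for Flnc. Here 10 of the 40 had an unadjusted p below 0.05, beside 1536 of all 9968 tested genes. On day 28, 2 members fell (Myl1 and Acta1), where 2% of all tested genes were called, 1.41% higher and 0.582% lower. The share of members called higher or lower on days 3, 7 and 28 was 7.5%, 5% and 5%. The median log2 difference of the 40 genes was 0.03, 0.04, -0.08, -0.06 and -0.11 on days 1, 3, 7, 14 and 28, beside 0.03, 0.04, -0.03, -0.02 and 0.02 over all tested genes. With each array centred on its own median, the day 3 median of the members was -0.04 and Xirp1 alone remained called there. The 3 day 3 calls were each lost when any 1 day 3 iron array or the first day 1 sham array was left out (adjusted p 0.0558 to 0.13). Both day 7 calls were lost without the first day 7 array or either day 1 sham array (0.0562 to 0.232), and both day 28 calls without either day 28 array or either day 1 sham array (0.0617 to 0.337).

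When late iron days were set against early ones, 15 of the 40 genes fell and none rose, where 22% of all tested genes were called, 11.7% lower and 10.3% higher. The median log2 difference of the members was -0.15, beside -0.03 over all tested genes. Of the 40 differences 36 were below 0 and 4 above, where 42.3% of all tested genes were above 0. Members called lower were 2 of 6 in the thick filament and 4 of 10 in the thin filament. In titin and the M-band they were 3 of 4 (Ttn, Myom1 and Tcap, the last a titin cap at the Z-disc). In the Z-disc group they were 6 of 17, with 0 of 3 among Ankrd1 and the ligases. In an F test of any difference among the 5 iron days 9 members were called, where 19.2% of all tested genes were. With day 7 left out of the late group, an alternative chosen after seeing the data, 8 members were called, 7 of them among the 15. Of all 9968 tested genes, 1236 were called in that setting, beside 2194 with day 7 kept. The arrays of days 1, 3, 14 and 28 serve in both comparisons, so the 7 shared members are no independent check of the 15. Fewer than 10 were called when iron replicate 2 or 3 of day 1, 3 of day 3, 1 of day 7 or either of day 28 was left out, with 7 to 17 over all single arrays left out. The 7 shared genes were Tcap, Actn2, Pdlim5, Tmod1, Tpm1, Des and Myl1.

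**Figure D2:**
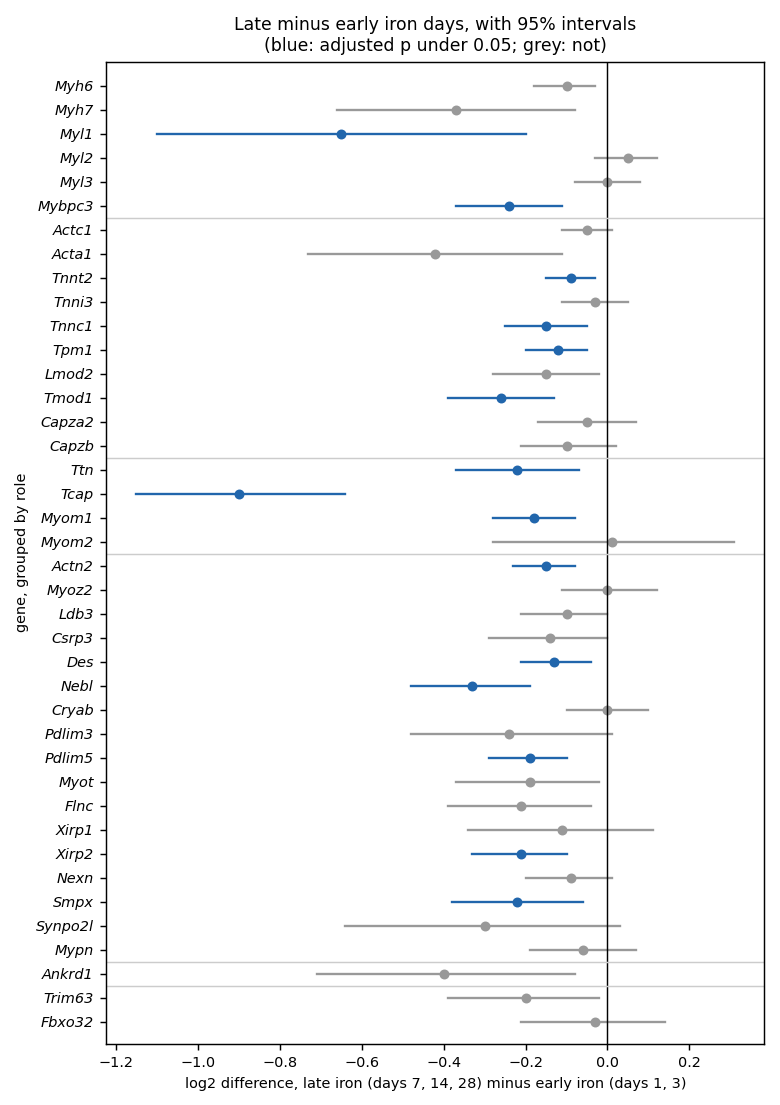
Log2 difference (x axis) of late iron (days 7, 14 and 28, 6 arrays) minus early iron (days 1 and 3, 6 arrays) for each of the 40 genes (y axis, grouped by role), with 95% intervals. Blue marks the 15 genes with an adjusted p below 0.05, all of them left of 0, and Tcap at -0.90 lies farthest to the left.

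Marker lists of other cells moved between the same arrays. Macrophage and monocyte markers averaged 6.89 to 8.62 on the late iron arrays, against 6.16 to 7.38 on the early ones, and 8 of 9 tested were called higher. Fibroblast markers averaged 6.74 to 7.53 on late and 6.17 to 7.57 on early arrays, with 7 of 9 called higher, and endothelial markers were called higher for 3 of 10. Ventricular cardiomyocyte markers outside the 40 genes averaged 11.36 to 11.56 on late and 11.57 to 11.62 on early arrays, with 3 of 10 called lower. The part of the cell mix in the sarcomere results was not tested.

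Among the thick filament genes, Myl1 and Mybpc3 fell late, and the motor genes and ventricular light chains were not called. Myh6, the main adult mouse myosin heavy chain, gave log2 signals of 12.26, 12.24 and 12.27 on day 1, 12.17, 12.28 and 12.20 on day 3, 12.02 and 12.11 on day 7, 12.03 and 12.18 on day 14 and 12.22 and 12.26 on day 28 after iron, against 12.22, 12.27 and 12.25 in sham. The lowest 3 of these values were from days 7 and 14, and the day 7 difference of -0.19 (SE 0.055, adjusted p 0.0693) did not pass. Myh7, the slow heavy chain typical of fetal and stressed mouse ventricle, gave 7.23, 7.07 and 7.22 on day 1, 7.04, 7.55 and 7.03 on day 3, 6.44 and 7.09 on day 7, 6.56 and 7.08 on day 14 and 6.91 and 6.81 on day 28 after iron, against 6.89, 7.24 and 6.85 in sham. Its 6 early arrays and 6 late arrays overlapped, and late minus early was -0.37 (SE 0.13, adjusted p 0.0617). The ventricular light chains Myl2 and Myl3 lay between 11.97 and 12.23 and between 12.01 and 12.20 on all 15 arrays, and neither was called in any comparison. Since Myh6 and Myh7 are close in sequence, as are the actins below, signal from one can reach the other's probes, which was not tested.

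Mybpc3 encodes cardiac myosin-binding protein C, a brake on cross-bridges. It gave 11.21, 11.17 and 11.32 on day 1, 11.18, 11.12 and 11.25 on day 3, 10.88 and 10.87 on day 7, 10.89 and 11.09 on day 14 and 11.01 and 11.08 on day 28 after iron, against 11.09, 11.41 and 11.07 in sham. All 6 late arrays were below all 6 early ones, with means of 10.97 ± 0.1 on the 6 late arrays and 11.21 ± 0.07 on the 6 early arrays (SD) and a log2 difference of -0.24 (SE 0.062, adjusted p 0.0154). The second day 1 sham array was the highest of all 15, and the other sham arrays were level with the highest late ones.

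Myl1, an essential light chain best known from fast skeletal muscle and also found in atrial and fetal heart, showed the largest difference from sham of the 40 genes on any day. It gave 8.29, 8.48 and 8.31 on day 1, 8.44, 8.02 and 8.57 on day 3, 7.93 and 8.12 on day 7, 8.54 and 7.72 on day 14 and 7.01 and 6.88 on day 28 after iron, against 9.33, 8.51 and 7.82 in sham. Both day 28 arrays were below every other array. The day 28 difference from sham was -1.61 (SE 0.33, adjusted p 0.0268), or 3.04-fold lower, and the sham arrays themselves spanned 7.82 to 9.33. The highest of them was the day 1 sham array with the high atrial markers, and without it the day 28 difference was -1.22 with an adjusted p of 0.0617. Late minus early iron was -0.65 (SE 0.21, adjusted p 0.0413), and here 1 late array (8.54 on day 14) exceeded all but 1 early array.

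Of the thin filament genes, Acta1 fell on day 28 and Actc1 stayed within 12.76 to 12.89 on all arrays. Acta1, the skeletal alpha-actin that the heart also makes, gave 9.84, 9.97 and 10.24 on day 1, 10.07, 9.58 and 10.20 on day 3, 10.26 and 9.84 on day 7, 9.63 and 9.50 on day 14 and 9.09 and 9.05 on day 28 after iron, against 10.29, 10.35 and 9.56 in sham. Both day 28 arrays were the lowest of the 15, and the day 3 sham array, at 9.56, was well below both day 1 sham arrays. The day 28 difference from sham was -1.0 (SE 0.23, adjusted p 0.0413), or 2-fold lower. Actc1, the cardiac alpha-actin, gave 12.78, 12.89 and 12.81 on day 1, 12.79, 12.84 and 12.85 on day 3, 12.76 and 12.80 on day 7, 12.79 and 12.77 on day 14 and 12.77 and 12.76 on day 28 after iron, against 12.85, 12.80 and 12.86 in sham. These values lie close to the highest value on the array, 13.01, where a probe can lose its response, and no Actc1 difference passed.

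The 250 bases upstream of a RefSeq start (build GRCm38.p6) are shown for both actins and for Myl1. They were chosen because Acta1 and Myl1 fell on day 28 and Actc1 was not called. The Myl1 window lies inside the gene, whose upstream end is at 66947932. Capitals mark a CArG box (CC, then 6 bases that are each A or T, then GG). They also mark an M-CAT element (CATTCC, or GGAATG on the other strand) and the TATA box letters (TATAAA, or TTTATA on the other strand). Sequences run 5′ to 3′ on the gene's strand, and both strands were searched.
Acta1, chr8:123894776-123895025, minus strand: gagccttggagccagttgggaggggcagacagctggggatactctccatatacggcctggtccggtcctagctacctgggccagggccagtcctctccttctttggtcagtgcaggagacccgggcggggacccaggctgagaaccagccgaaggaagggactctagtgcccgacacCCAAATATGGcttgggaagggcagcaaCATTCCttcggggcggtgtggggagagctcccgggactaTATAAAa
Actc1, chr2:114052876-114053125, minus strand: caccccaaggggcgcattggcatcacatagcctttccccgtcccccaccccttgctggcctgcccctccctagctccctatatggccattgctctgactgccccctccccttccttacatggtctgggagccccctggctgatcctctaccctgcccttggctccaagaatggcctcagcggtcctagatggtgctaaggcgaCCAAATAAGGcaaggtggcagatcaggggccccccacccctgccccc
Myl1, chr1:66945057-66945306, minus strand: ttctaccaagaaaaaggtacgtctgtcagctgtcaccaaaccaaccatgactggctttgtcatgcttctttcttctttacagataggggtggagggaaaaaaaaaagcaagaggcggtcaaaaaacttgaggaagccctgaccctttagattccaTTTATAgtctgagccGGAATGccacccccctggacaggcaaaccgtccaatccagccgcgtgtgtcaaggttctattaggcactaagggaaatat
Counted back from the RefSeq start, the CArG box lay at positions -73 to -64 in Acta1 and -47 to -38 in Actc1. None was found in the Myl1 window. Whether transcription begins at the RefSeq start was not tested. An M-CAT element lay at -46 to -41 in Acta1 and at -80 to -75 in Myl1. The TATA box letters lay at -7 to -2 in Acta1 and, on the other strand, at -95 to -90 in Myl1. Whether either serves as a TATA box was not tested. The table held windows for 33 of the 40 genes, 44 windows in all. A CArG box was in 7 of the 44, from Acta1, Actc1, Ldb3, Myl3, Myom1 and Nebl, against 1.47% of 32851 windows of all genes. M-CAT elements were in 15 of the 44 (12.64% of all windows), the TATA box in 6 (12.37%) and a MEF2 box (CTA, then 4 bases that are each A or T, then TA and a purine) in 6 (1.69%), the last from Mybpc3, Myoz2, Synpo2l, Ttn and Xirp2. These matches describe letters in a window and do not show binding.

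Troponin and tropomyosin genes moved little in size. Their mean signals, like those of Myh6, Myl2 and Myl3, were above at least 99.8% of named genes. A loss of probe response at such signals, as named for Actc1, was not tested. Tnnt2, cardiac troponin T, which ties the troponin complex to tropomyosin, gave 12.43, 12.43 and 12.52 on day 1, 12.53, 12.54 and 12.49 on day 3, 12.35 and 12.44 on day 7, 12.38 and 12.39 on day 14 and 12.43 and 12.42 on day 28 after iron, against 12.42, 12.43 and 12.44 in sham. Its late mean was lower by a small step, -0.09 (SE 0.029, adjusted p 0.045), and the late range, up to 12.44, overlapped the early one, from 12.43. Tnnc1, the calcium sensor of slow and cardiac muscle, gave 12.00, 11.94 and 12.04 on day 1, 12.02, 11.90 and 11.96 on day 3, 11.78 and 11.92 on day 7, 11.93 and 11.84 on day 14 and 11.73 and 11.76 on day 28 after iron, against 11.94, 12.05 and 11.78 in sham. Both day 28 arrays were the lowest, as far down as 11.73, and late minus early was -0.15 (SE 0.048, adjusted p 0.041). Tpm1, the tropomyosin that covers the myosin sites on actin, gave 11.92, 12.01 and 12.05 on day 1, 11.99, 12.04 and 12.03 on day 3, 11.81 and 11.98 on day 7, 11.92 and 11.90 on day 14 and 11.85 and 11.84 on day 28 after iron, against 11.97, 11.98 and 11.95 in sham. The second day 7 array lay well inside the early range and the other late arrays at or below its lower end, and the difference was -0.12 (SE 0.035, adjusted p 0.0275). Tnni3, the inhibitory troponin subunit, spanned 12.22 to 12.40 and was not called.

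Of the genes for thin filament ends, Lmod2 rose on day 3 and Tmod1 fell late. Lmod2, a leiomodin that lengthens thin filaments at their pointed end, gave 11.16, 11.56 and 11.47 on day 1, 11.57, 11.66 and 11.58 on day 3, 11.31 and 11.36 on day 7, 11.46 and 11.28 on day 14 and 11.32 and 11.40 on day 28 after iron, against 11.25, 11.23 and 11.25 in sham. The 3 sham arrays agreed to within 0.02, all 3 day 3 arrays were above them, and the first day 1 iron array was the lowest of all. Lmod2 rose on day 3 by 0.36 (SE 0.085, adjusted p 0.0245), or 1.28-fold, and the adjusted p was 0.0688 against the day 1 sham arrays alone. Tmod1, the tropomodulin that caps the same end, gave 10.61, 10.65 and 10.71 on day 1, 10.51, 10.67 and 10.57 on day 3, 10.23 and 10.41 on day 7, 10.27 and 10.51 on day 14 and 10.37 and 10.38 on day 28 after iron, against 10.57, 10.63 and 10.37 in sham. The late arrays were below the early ones except for a tie at 10.51, and late minus early was -0.26 (SE 0.061, adjusted p 0.0103). A second, dimmer Tmod1 probe set went the other way on day 28, at 0.73 with an adjusted p of 0.0194, and did not differ detectably between late and early (0.06, adjusted p 0.676). The barbed-end capping subunits Capza2 and Capzb spanned 9.17 to 9.58 and 10.00 to 10.33 and were not called.

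Tcap showed the strongest late decrease among the 40 genes. It encodes telethonin, the titin cap at the Z-disc, and gave 9.74, 9.62 and 10.12 on day 1, 9.77, 10.06 and 9.90 on day 3, 8.45 and 9.10 on day 7, 9.16 and 9.28 on day 14 and 8.94 and 8.89 on day 28 after iron, against 9.50, 9.83 and 9.39 in sham. Every late array was below every early array and every sham array. Late minus early was -0.90 (SE 0.12, adjusted p 0.000419), or 1.86-fold lower, from means of 8.97 ± 0.29 on the 6 late arrays and 9.87 ± 0.19 on the 6 early arrays (SD). Day 7 minus sham was -0.80 (SE 0.19, adjusted p 0.0312), or 1.74-fold lower, and without the first day 7 array, the lowest of all, it was -0.48 with an adjusted p of 0.232. Differences from sham on day 14, -0.35 (SE 0.19, adjusted p 0.368), and day 28, -0.65 (SE 0.19, adjusted p 0.0882), did not pass. The arrays did not overlap on either day, which 2 against 3 arrays can show without a real difference. The share of all genes without overlap was not counted.

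Clock genes, chosen after their values were seen, separated the same arrays. Dbp, a transcription factor under direct clock control, averaged 8.05 ± 0.24 on the 6 late arrays and 9.87 ± 0.12 on the 6 early arrays, against 9.51 to 9.93 in sham, with a late minus early difference of -1.82. Arntl, which encodes the clock activator BMAL1, averaged 7.12 ± 0.18 on the 6 late arrays and 4.68 ± 0.49 on the 6 early arrays, against 4.80 to 5.59 in sham, with a difference of 2.43. On both genes the late and early arrays were wholly apart. The labels give no time of day for the preparations, and the part of time of day in the Tcap and other late minus early differences was not tested.

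**Figure D3:**
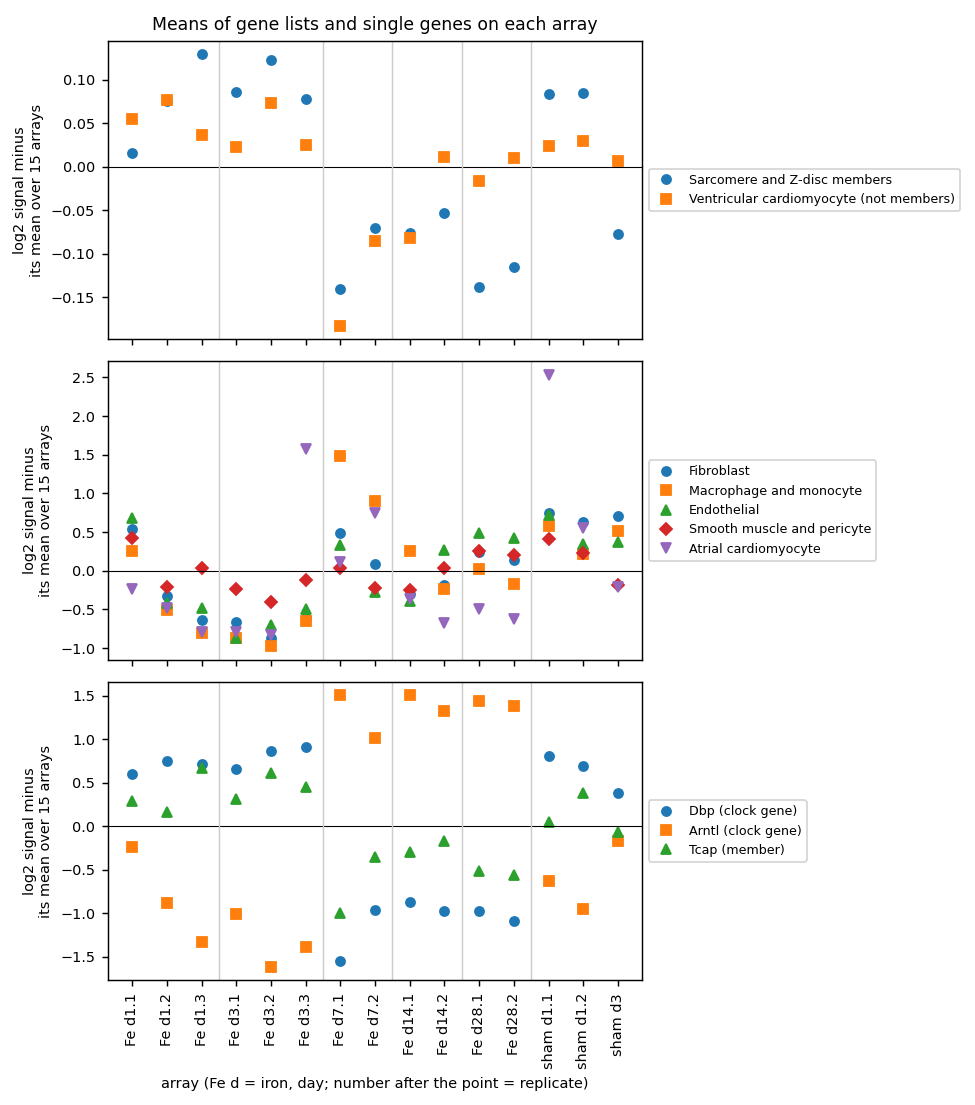
Each array (x axis, iron days 1 to 28, then sham) with its mean log2 signal, as difference from the mean over 15 arrays (y axis), for the 40 members and ventricular markers (top), markers of other cells (middle) and Dbp, Arntl and Tcap (bottom). Dbp and Tcap are low and Arntl is high on all 6 late iron arrays, and the atrial list is highest on the first sham array.

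Ttn, the giant spring itself, gave 11.85, 11.80 and 11.75 on day 1, 11.58, 11.83 and 11.66 on day 3, 11.45 and 11.31 on day 7, 11.22 and 11.67 on day 14 and 11.72 and 11.81 on day 28 after iron, against 11.68, 11.77 and 11.81 in sham. Both day 7 arrays and the first day 14 array were the lowest of the 15, whereas the day 28 arrays, at 11.72 and 11.81, were among the early and sham values. Late minus early was -0.22 (SE 0.069, adjusted p 0.0379) and day 7 minus sham was -0.38 (SE 0.11, adjusted p 0.0634). Myom1, the myomesin that links titin to myosin at the M-band, gave 10.91, 10.96 and 10.92 on day 1, 10.74, 10.89 and 10.81 on day 3, 10.49 and 10.60 on day 7, 10.60 and 10.75 on day 14 and 10.82 and 10.87 on day 28 after iron, against 10.70, 10.86 and 10.84 in sham. It had the same low points on day 7 and the first day 14 array, day 28 lay inside the early range, and late minus early was -0.18 (SE 0.046, adjusted p 0.0156). With days 14 and 28 alone as the late group, neither gene was called. Myom2 spanned 9.57 to 10.77, from a day 1 sham array to a day 3 iron array, and was not called.

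Within the Z-disc, Nebl and Actn2 fell late. Nebl encodes nebulette, an actin-binding Z-disc protein of the heart, and gave 9.96, 10.10 and 9.98 on day 1, 9.80, 10.02 and 9.88 on day 3, 9.29 and 9.40 on day 7, 9.47 and 9.87 on day 14 and 9.83 and 9.87 on day 28 after iron, against 9.75, 9.91 and 9.81 in sham. Both day 7 arrays and the first day 14 array were below all others, and day 28 lay within the sham range. Day 7 minus sham was -0.48 (SE 0.11, adjusted p 0.0294), or 1.39-fold lower, and late minus early was -0.33 (SE 0.069, adjusted p 0.00537). With day 7 left out of the late group late minus early was -0.20 with an adjusted p of 0.114. A second Nebl probe set gave -0.38 on day 7 against sham, which did not pass (adjusted p 0.138), and -0.31 for late minus early with an adjusted p of 0.0334.

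Actn2, the cardiac alpha-actinin that cross-links actin at the Z-disc, gave 11.64, 11.71 and 11.71 on day 1, 11.63, 11.72 and 11.61 on day 3, 11.46 and 11.56 on day 7, 11.48 and 11.50 on day 14 and 11.54 and 11.55 on day 28 after iron, against 11.67, 11.65 and 11.61 in sham. All 6 late arrays were below all early and all sham arrays, by a small step of -0.15 (SE 0.034, adjusted p 0.00787) from means of 11.52 ± 0.04 on the 6 late arrays and 11.67 ± 0.05 on the 6 early arrays (SD). The Actn2 window is shown because it alone among the 44 held the E-box CACGTG (in capitals), the sequence that BMAL1 with CLOCK can bind, which 6.02% of all windows hold.
Actn2, chr13:12340733-12340982, minus strand: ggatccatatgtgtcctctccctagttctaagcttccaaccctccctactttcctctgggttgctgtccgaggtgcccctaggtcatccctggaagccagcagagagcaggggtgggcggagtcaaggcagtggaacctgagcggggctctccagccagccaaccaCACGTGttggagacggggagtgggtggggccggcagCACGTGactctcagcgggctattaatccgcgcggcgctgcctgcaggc
Its E-boxes lay at -84 to -79 and -48 to -43. These letters do not show binding, and their part in the Actn2 decrease was not tested. The other members with a window held none, among them other genes that fell late. No window was in the table for Tcap.

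Des and Pdlim5 also fell late. Des encodes desmin, which ties neighbouring Z-discs together, and gave 11.47, 11.41 and 11.46 on day 1, 11.32, 11.35 and 11.31 on day 3, 11.19 and 11.35 on day 7, 11.28 and 11.29 on day 14 and 11.25 and 11.21 on day 28 after iron, against 11.41, 11.41 and 11.26 in sham. The second day 7 array lay within the early range, and late minus early was -0.13 (SE 0.040, adjusted p 0.0381). Pdlim5, a PDZ-LIM scaffold on alpha-actinin, gave 11.20, 11.33 and 11.22 on day 1, 11.09, 11.01 and 11.08 on day 3, 10.91 and 11.09 on day 7, 10.90 and 10.97 on day 14 and 10.90 and 10.98 on day 28 after iron, against 11.27, 11.24 and 11.14 in sham. Its day 3 arrays lay below day 1 and sham, with only the second day 7 array as high as day 3, and late minus early was -0.19 (SE 0.045, adjusted p 0.00915). The other PDZ-LIM genes, Pdlim3 and Ldb3, were not called, with late minus early values of -0.24 and -0.10.

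The Xin-repeat genes, whose actin-binding products sit at Z-discs and intercalated discs, gave 1 rise on day 3 (Xirp1) and 1 late decrease (Xirp2), and the difference between them was not tested. Xirp1 gave 9.30, 9.37 and 9.47 on day 1, 9.69, 9.99 and 9.85 on day 3, 9.83 and 9.14 on day 7, 9.33 and 9.46 on day 14 and 9.57 and 9.67 on day 28 after iron, against 9.46, 9.29 and 9.07 in sham. All 3 day 3 arrays were above all sham arrays, and day 7 was split, with 1 array at 9.83 and the other at 9.14. Day 3 minus sham was 0.57 (SE 0.15, adjusted p 0.0334), or 1.49-fold higher, and with the day 1 sham arrays alone it was 0.47 with an adjusted p of 0.12. Xirp2 gave 10.44, 10.55 and 10.44 on day 1, 10.34, 10.31 and 10.29 on day 3, 10.12 and 10.00 on day 7, 10.13 and 10.28 on day 14 and 10.27 and 10.29 on day 28 after iron, against 10.33, 10.38 and 10.09 in sham. Its highest values were on day 1, the late arrays stood just below the early ones without overlap (the closest pair both round to 10.29), and the day 3 sham array was as low as day 7. Late minus early was -0.21 (SE 0.055, adjusted p 0.0154).

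Smpx, a small muscle protein that responds to stretch, gave 10.12, 10.33 and 10.24 on day 1, 10.17, 10.03 and 10.20 on day 3, 9.86 and 10.12 on day 7, 10.19 and 10.02 on day 14 and 9.78 and 9.79 on day 28 after iron, against 10.27, 10.28 and 9.93 in sham. The day 28 arrays were the lowest, the second day 7 and first day 14 arrays lay within the early range, and late minus early was -0.22 (SE 0.073, adjusted p 0.0456). The remaining Z-disc members were Myoz2, Csrp3, Cryab, Myot, Flnc, Nexn, Synpo2l and Mypn, and none was called in any comparison. Their late minus early values ran from -0.30 for Synpo2l, an actin-bundling relative of myopodin, to 0.00 for Cryab, the small heat shock protein that protects desmin and titin. Flnc, the muscle filamin, gave -0.52 on day 14 against sham, which did not pass. Csrp3, muscle LIM protein, gave late minus early of -0.14 (SE 0.065, adjusted p 0.126).

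Ankrd1 and the ligases gave 1 call between them. Ankrd1, a stress-inducible protein that binds the titin spring, gave 11.09, 11.70 and 11.56 on day 1, 11.37, 11.15 and 11.30 on day 3, 11.40 and 10.86 on day 7, 10.76 and 11.03 on day 14 and 10.82 and 10.90 on day 28 after iron, against 11.95, 11.63 and 11.07 in sham. The sham arrays spanned most of the range, from 11.07 to 11.95, and no comparison passed, with day 28 at -0.69 (SE 0.23, adjusted p 0.138). Fbxo32 encodes atrogin-1, and gave 8.90, 8.93 and 9.12 on day 1, 9.46, 9.20 and 9.18 on day 3, 8.85 and 9.10 on day 7, 9.28 and 9.16 on day 14 and 9.05 and 9.16 on day 28 after iron, against 8.62, 8.92 and 8.99 in sham. All 3 day 3 arrays were above sham, and Fbxo32 rose by 0.44 (SE 0.11, adjusted p 0.0352), or 1.35-fold. Trim63 encodes MuRF1, which ubiquitinates titin-bound and thick filament proteins, and gave 9.07, 8.96 and 9.21 on day 1, 9.37, 9.12 and 8.88 on day 3, 8.54 and 8.87 on day 7, 9.19 and 8.96 on day 14 and 8.92 and 8.93 on day 28 after iron, against 8.76, 8.80 and 8.68 in sham. It was also above sham on all 3 day 3 arrays, but at 0.38 (SE 0.12, adjusted p 0.0734) it did not pass, and 1 day 7 array was below all sham values.

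**Figure D4:**
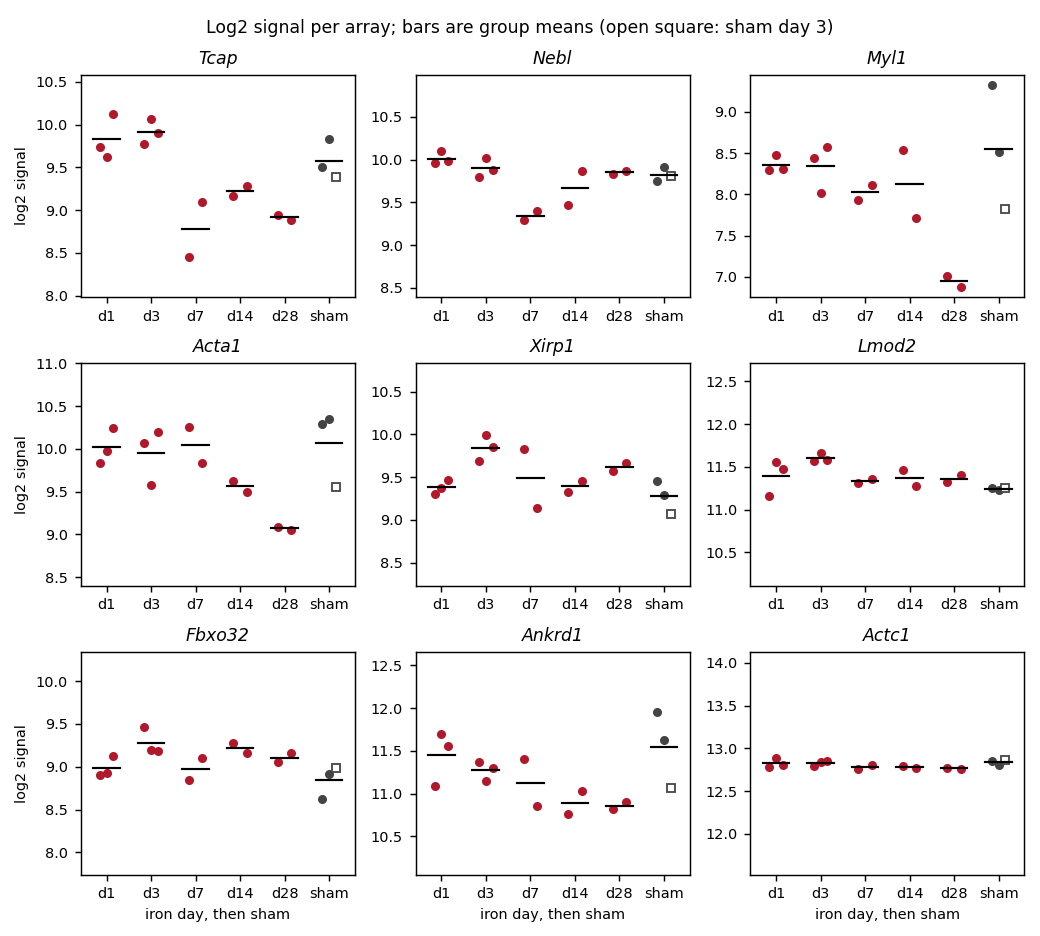
Log2 signal (y axis) of 9 members on each array, by iron day and sham (x axis); points are arrays, black bars are group means and the open square is the day 3 sham array. Tcap is lower on every late day, Nebl on day 7, and Myl1 and Acta1 on day 28, while Xirp1, Lmod2 and Fbxo32 are above sham on day 3 and Actc1 spans 12.76 to 12.89.

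A further 52 sarcomere-associated genes outside the 40 were listed for comparison, of which 47 were tested. None was called by limma on days 1 and 14, where 6 and 9 had an unadjusted p below 0.05. Of all 9968 tested genes, 1101 and 1536 had one on those days. On day 3, 5 of the 47 (10.6%) were called, beside 8.04% of all tested genes. Bag3, a co-chaperone for filamin turnover, rose by 0.47, and Actn1, Csrp1, Tpm3 and Tpm4 fell by 0.84, 0.81, 1.13 and 1.28; those 4 are also made by non-muscle cells. On the same arrays 9 of 9 fibroblast, 8 of 9 macrophage and 7 of 10 endothelial markers were called lower, and their part in these differences was not tested. On day 7, 6 (12.8%) fell and none rose, beside 4.61% of all tested genes called, led by Dmd (-0.67), the dystrophin gene, the myosin light chain kinase gene Mylk4 (-0.52), the ligase gene Trim55 (-0.49) and Sorbs2 (-0.43). On day 28, Hspb7, a small heat shock protein gene of cardiac muscle, was at -0.35 and Fhl2, a LIM-only partner of titin, at -0.28, both called (4.26%, beside 2% of all tested genes). Late minus early, 19 of the 47 fell and 3 rose, beside 11.7% lower and 10.3% higher of all tested genes, and the smallest p-values belonged to Mylk4 (-0.43), Hspb7 (-0.29), Trim55 (-0.38) and Fhl2 (-0.24). The 3 that rose were Csrp1, Tpm3 and Tpm4, at 0.69, 0.83 and 0.64. The median of the 47 was -0.18, beside -0.03 over all tested genes.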

How the data were processed

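RNA of isolated left ventricular cardiomyocytes was read on gene-level arrays, 15 in all. Deposited values were log2 signals of 34760 probe sets, from 0.234 to 13.01 with 0 missing. The submitters' processing notes name MAS5; its version and what it did to these values are unstated. A single gene symbol was listed for 21640 probe sets, several for 1321 and none for 11799. Each named gene was represented by its single-symbol probe set with the highest mean, and 38 members had 1 such probe set and 2 had 2. Group means of 6 groups (sham days pooled) were fitted with limma 3.58.1 in R 4.3.3, with an intensity trend and 9 residual degrees of freedom, over the 9968 genes with a mean above 5.5125, and p-values were adjusted by Benjamini-Hochberg. The threshold was 0.05. The fit was tested on simulated data for days 3 and 28 against sham. It called 93 and 89 of 100 log2 changes of 1, and 61 and 52 of 100 changes of 0.5. It also called 12 and 7 unchanged genes. A member that was not called may thus still differ by such amounts. Members called in any comparison, and Myh6, Myh7, Actc1, Ankrd1 and Trim63, are given with every array. Members and lists were chosen with earlier results of these data known. The number of arrays limits the precision. Alternatives were 11 settings and leaving out each of 15 arrays. Promoter windows came from RefSeq (GRCm38.p6). The proton arm was not analysed here.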

Additional observations from a re-analysis of the deposited data

Results flagged for a closer look

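Signals on iron arrays differed between the late (7, 14 and 28) and early (1 and 3) days for 15 of the 40 genes, by the test of that difference itself. In the same test 22% of all tested genes were called, 11.7% lower and 10.3% higher. The log2 differences, late minus early, were -0.90 for Tcap, -0.65 for Myl1, -0.33 for Nebl, -0.26 for Tmod1, -0.24 for Mybpc3, -0.22 for Ttn, -0.22 for Smpx, -0.21 for Xirp2, -0.19 for Pdlim5, -0.18 for Myom1, -0.15 for Actn2, -0.15 for Tnnc1, -0.13 for Des, -0.12 for Tpm1 and -0.09 for Tnnt2. Acta1 differed among the 5 iron days in the F test (adjusted p 0.0373) without being called late against early. No group held enough arrays for a test of single outlying arrays.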

How the results depend on the processing

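No called member difference had the opposite sign in the 25 alternatives; the second Tmod1 probe set, too dim for the filter, was at 0.73 on day 28 (adjusted p 0.0194), where the brighter one was at -0.15 and not called. The signs of 15 late against early calls were kept in all 25 alternatives, and Tcap, Actn2, Pdlim5 and Tmod1 were called in all 25. Several alternatives (filter, trend, arrays outside the comparison) leave the difference itself unchanged, so its sign could not change there. Against sham, using the day 1 sham arrays alone and leaving out the day 3 sham array are the same fit, counted under both names. Tnnt2 was called in 7 of 25, Ttn in 9, Des and Tnnc1 in 10 each and Smpx in 12. Against sham, Myl1 on day 28 was called in 20 of 25, Acta1 in 15, Tcap and Nebl on day 7 in 19 each, Xirp1 and Lmod2 on day 3 in 17 each and Fbxo32 in 16.

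Counts of members called moved by over 1.5 times as follows, and the causes were not tested. With arrays centred on their medians the counts were 1 on day 3, 8 on day 7, 1 on day 14 (Flnc) and 4 on day 28. Over all genes they were 1066, 1111, 105 and 292. The all-gene median on day 28 was -0.0943, against 0.019 as reported. With quantile normalization 1 was called on day 14 (Pdlim5), beside 97 over all genes. With array weights the counts were 6 on day 3, 1 on day 7, 17 on day 28 and 22 in the F test. Over all genes they were 1691, 244, 2449 and 4051. With only the arrays compared, 0 were called on days 7 and 28, beside 45 and 208 over all genes. With the day 1 sham arrays alone (the same as leaving out the day 3 sham array), 1 was called on day 3, 4 on day 7 and 6 on day 28. Over all genes these counts were 270, 413 and 477. Without the filter on mean signal, 8 were called late against early, beside 2329 of the 19937 named genes. Without the intensity trend, 9 were called late against early and 5 in the F test, beside 2118 and 1902 over all genes. With days 14 and 28 only as late, 8 were called, beside 1236.

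Leaving out 1 array at a time gave 0 to 1 member on day 1, 0 to 3 on day 3, 0 to 5 on day 7, 0 to 2 on day 14, 0 to 6 on day 28, 7 to 17 late against early and 2 to 12 in the F test. Where this left 1 array in a group, that array was taken to vary like the other groups.

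Replicate numbers are shared between groups, but nothing in the labels says they pair arrays. Deviations of 31 same-numbered pairs correlated at -0.39 to 0.57 (median 0.06), with 11 over 0.1. Those of 50 other-numbered pairs correlated at -0.565 to 0.49 (median -0.03), with 14 over 0.1. The ranges overlapped widely, so the numbers were not shown to pair arrays. With the replicate number as a block, 0 members were called on day 3, 8 on day 28 and 8 late against early. Over all genes these counts were 155, 393 and 1447.

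Over all genes, against 6, 801, 460, 83, 199, 2194 and 1912 calls as reported (days 1 to 28, late against early, F test), array weights gave 69 on day 1, 1691 on day 3, 244 on day 7, 2449 on day 28 and 4051 in the F test. The block gave 0 on day 1, 155 on day 3, 53 on day 14, 393 on day 28, 1447 late against early and 1249 in the F test. The day 1 sham arrays alone gave 0, 270 and 477 on days 1, 3 and 28. Testing 6646 genes of highest signal gave 451 on day 3 and 107 on day 28, centring 1111 on day 7, only the arrays compared 0 on day 1 and 45 on day 7, no filter 0 and no trend 2 on day 1, and days 14 and 28 only as late 1236. Leaving out 1 array gave 0 to 363 on day 1, 126 to 1083 on day 3, 46 to 556 on day 7, 25 to 167 on day 14, 41 to 477 on day 28, 1248 to 2710 late against early and 612 to 2577 in the F test. Centring left 11.8% of day 3 calls higher, against 34.7% as reported, and 16.8% against 42.2% on day 7, 47.6% against 71.1% on day 14, 34.2% against 70.9% on day 28 and 36.4% against 46.8% late against early. Quantile normalization left 58.9% higher on day 28.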
